A study of Mus musculus with 9 samples.

Results

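*Pde3b* and 8 other genes of cyclic nucleotide signalling were examined in splenic monocytes of mice, out of 46072 genes in the deposited tables, of which 26108 were above 0 in at least 1 library. The 9 genes were *Pde3b*, the phosphodiesterases *Pde2a*, *Pde4a*, *Pde4b*, *Pde4d*, *Pde7a* and *Pde8a*, the adenylyl cyclase *Adcy7* and the transcription factor gene *Crem*. They were selected by gene symbol, and *Pde3b* was put first because of its values in these same libraries in Van against Con and in VanLip against Van. The levels and fold changes of the 9 genes are therefore given as a description, with no p-value, and their calls are counted only beside the share of all genes called. All 9 had a value above 0 in every library.

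The libraries came from female C57BL/6 mice of 8 to 10 weeks, with 3 libraries in each of 3 groups. Mice of the Con group had water by gavage. Mice of the Van group had vancomycin instead, a poorly absorbed antibiotic, at a daily dose of 2 mg each for 6 days. VanLip mice had the same vancomycin gavage and then received L654, a serine-glycine lipid of gut bacteria that is sensed by TLR2, by retro-orbital injection on days 7, 9 and 11. Rest after gavage lasted 8 days for these groups by the study's text, where the labels give a range of 6 to 8 days. The monocytes were enriched from spleen by bead depletion of other cells and were not stimulated before RNA was taken. The comparisons asked how the monocyte transcriptome differed after vancomycin, and after vancomycin followed by L654. The study reports lower plasma levels of serine-glycine lipids after this gavage, without values tied to the sequenced mice. Its passage on sequencing names injections for VanLip alone, so whether Con and Van mice had injections without lipid is not clear. The part of injection in the VanLip values was not tested. The study's text names 3 mice per group for the sequencing, and its methods also describe joining spleens of a cohort before monocytes were isolated.

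Cyclic AMP is made from ATP by adenylyl cyclases, which G protein-coupled receptors switch on or off, and it acts mainly through protein kinase A and EPAC. Phosphodiesterases are the enzymes that break cyclic AMP and cyclic GMP down, and each family has its own affinity, location and regulation. In monocytes and macrophages cyclic AMP is known to restrain inflammatory cytokine release, and inhibitors of the PDE4 family are used as anti-inflammatory drugs. PDE3B is a membrane-bound enzyme with high affinity for cyclic AMP that cyclic GMP inhibits competitively and that insulin activates through PI3K and AKT.

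The phosphodiesterases share a catalytic domain, and the stretch of 36 coding bases around its metal-binding signature is shown for *Pde3b* and for the members *Pde8a* and *Pde4b*, on which the results below turn, so that the distance between the genes can be seen. The capitals mark the codons of the histidine and aspartate that open the signature and of its second histidine. Sequences and positions were read from GENCODE M21 on GRCm38.
Pde3b, chr7:114526921-114526956, plus strand, exon 12 of 16: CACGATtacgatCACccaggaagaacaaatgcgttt
Pde8a, chr7:81324067-81324102, plus strand, exon 18 of 22: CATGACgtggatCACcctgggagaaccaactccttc
Pde4b, chr4:102599694-102599729, plus strand, exon 13 of 17: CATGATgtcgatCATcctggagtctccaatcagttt
Both the *Pde8a* and the *Pde4b* stretch matched *Pde3b* at 24 of 36 bases (66.7%), although this is the most conserved part of the enzymes. Over the whole coding transcript of *Pde3b*, the longest run identical to any of 168 annotated transcripts of the 20 other phosphodiesterase genes was 17 bases, in *Pde1c*. A read of the lengths implied for these libraries thus cannot match *Pde3b* and another phosphodiesterase equally well over its full length.

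The VanLip libraries differed from the others in depth and in implied read size. Expected counts summed to between 43070361 and 61383806 per library in Con and Van and to between 170503470 and 184720704 in VanLip. The commonest low count was 1.33 in the 6 Con and Van libraries and 2.00 in the 3 VanLip libraries, which corresponds to reads of 100 and 150 bases under the assumption tximport makes by default. Expressed as fragments, the libraries then held 16151385 to 23018927 in Con and Van and 42625868 to 46180176 in VanLip, a smaller gap than that of the summed counts. The study's methods state paired reads of 100 bases, at a lower depth, and name no other value for VanLip. The 150 bases are thus inferred and differ from the stated length. Any difference between VanLip and another group cannot be told apart from this difference between libraries, whereas the Con and Van libraries had the same implied read size. All 3 comparisons reuse the same libraries, so a high value in Van enters both Van against Con and VanLip against Van. Monocyte markers were abundant in every library, as *Csf1r*, the receptor for the monocyte growth factor, lay between 528 and 643 FPKM (fragments per kilobase, corrected for library depth). RNA of other cells was also present, with *Ighm* of B cells at 241 to 381 FPKM, *Cd4* at 4.85 to 11.0 and *S100a8* of neutrophils at 1.22 to 4.86, beside *Cd3e* of T cells at 0.378 to 0.716 and *Ly6g* of neutrophils listed at 0 in all 9.

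*Pde3b* was higher in Van than in Con and close to the Con level in VanLip. The gene lies at chr7:114415281-114539251 on the plus strand of GRCm38. Its level in the Con libraries was 1.99, 2.19 and 1.98 FPKM. In the Van libraries it was 7.64, 7.20 and 6.93 FPKM, and in the VanLip libraries 2.64, 2.05 and 2.12 FPKM. Every Van library was thus above every Con and VanLip library, while the VanLip and Con ranges overlapped and VanLip replicate 1 was the highest outside Van. The mean normalized count was 1276 ± 85.2 for Con, 4506 ± 258 for Van and 1387 ± 188 for VanLip (SD, n = 3 each). In normalized counts the Van to Con ratio was 3.53 (log2 1.82 ± 0.11, SE), the VanLip to Con ratio 1.09 (log2 0.12 ± 0.11) and the VanLip to Van ratio 0.308 (log2 -1.70 ± 0.11).

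**Figure D1:**
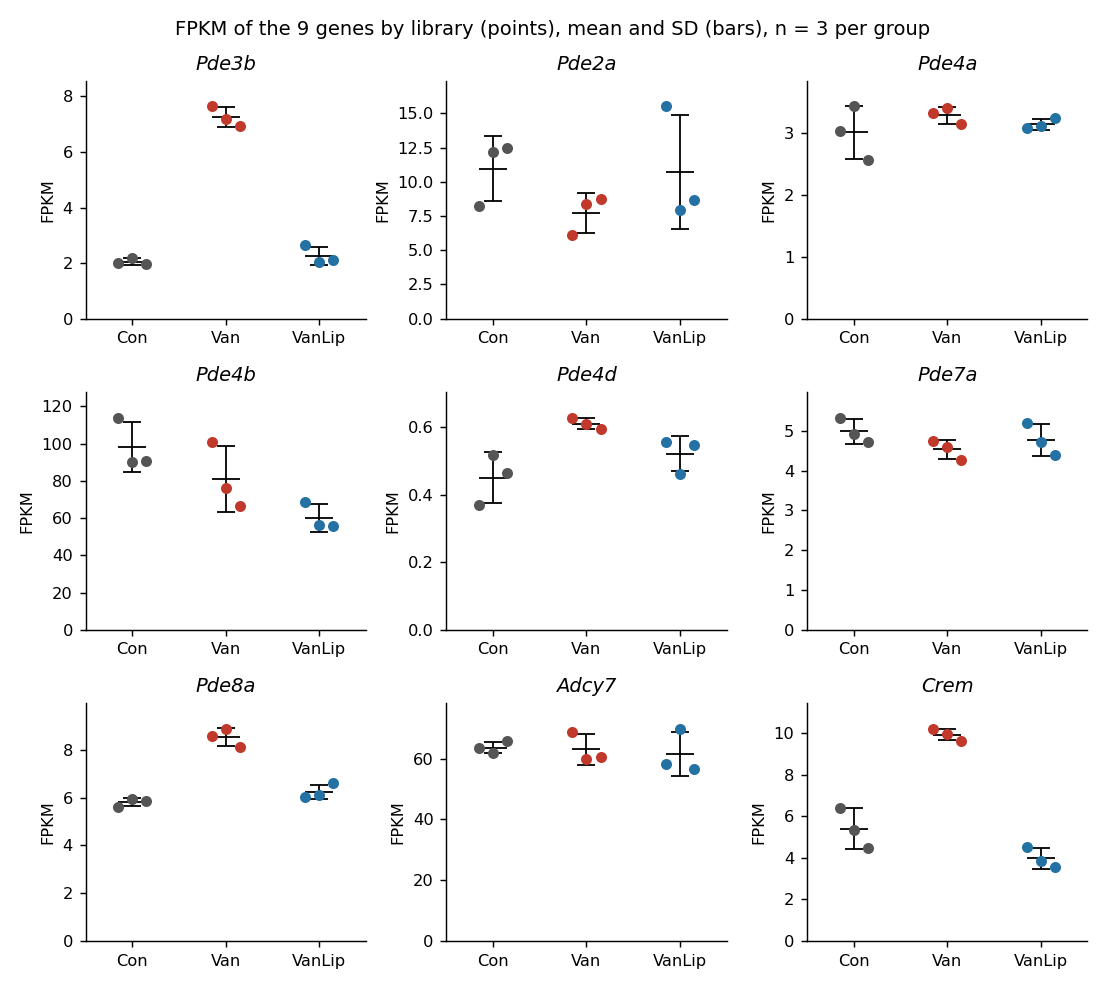
FPKM of the 9 genes in each library, with 1 panel per gene, the group on the horizontal axis and a vertical axis that starts at 0. Points are libraries and bars give the mean and SD (n = 3). The 3 Van libraries of *Pde3b* lie between 6.93 and 7.64 FPKM and all others at or under 2.64.

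The transcripts counted for *Pde3b* had a like length in every group. Dividing the expected count by FPKM gives the abundance-weighted length of a gene's transcripts, which for *Pde3b* lay between 6333 and 6555 bases in the 9 libraries. Its single coding transcript has 6573 bases and the 3 shorter annotated transcripts, all retained introns, have 485 to 2658 bases. The mean weighted length was 6479 ± 74.4 bases for Con, 6529 ± 4.26 for Van and 6467 ± 118 for VanLip (SD, n = 3 each), with overlapping groups.

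The genes next to *Pde3b* on chromosome 7 were called in none of the 3 comparisons. *Psma1*, a proteasome subunit gene that ends 139163 bases before *Pde3b*, had log2 fold changes of -0.08 in Van against Con and 0.00 in VanLip against Van (DESeq2 with Benjamini-Hochberg adjustment, adjusted p = 0.76 and 0.991). The values of *Copb1*, a coatomer subunit gene beyond it, were -0.05 and 0.05 (adjusted p = 0.857 and 0.716, DESeq2). *Cyp2r1*, the vitamin D 25-hydroxylase gene that begins 10431 bases after *Pde3b*, had values of -0.02 and -0.17 (adjusted p = 0.984 and 0.595, DESeq2). *Calca*, the calcitonin gene further on, was listed at 0 in all 9 libraries.

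*Pde8a*, which encodes a phosphodiesterase of very high affinity for cyclic AMP, followed the order of *Pde3b* at a smaller size. It lies on the same chromosome at chr7:81213596-81334533. The Con libraries had 5.62, 5.94 and 5.87 FPKM, the Van libraries 8.58, 8.88 and 8.13, and the VanLip libraries 6.02, 6.09 and 6.59. All Van libraries were above all others, and the VanLip libraries were above the Con libraries by a margin smaller than the range within either group. Its log2 fold change in Van against Con was 0.52 ± 0.08 (SE). The values for VanLip were 0.08 ± 0.08 relative to Con and -0.45 ± 0.08 relative to Van.

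Promoter sequences (RefSeq, GRCm38.p6) were at hand for *Pde2a*, *Pde4a*, *Pde4b*, *Pde4d*, *Pde8a* and *Adcy7*, and not for *Pde3b*, *Pde7a* and *Crem*. The 250 bases before the *Pde8a* start that RefSeq gives, which lies upstream of the start in GENCODE M21, are shown as the promoter of a member with a higher level in Van, with the letters TGACG in capitals, which are a part of the element that CREB and CREM proteins bind. They span chr7:81213015-81213264 on the plus strand.
Pde8a promoter: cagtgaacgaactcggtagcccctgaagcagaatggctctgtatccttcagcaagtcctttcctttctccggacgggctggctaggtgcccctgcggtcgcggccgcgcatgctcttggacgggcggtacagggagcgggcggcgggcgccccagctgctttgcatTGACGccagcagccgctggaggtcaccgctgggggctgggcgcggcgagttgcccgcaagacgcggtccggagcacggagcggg
TGACG was searched on both strands and occurred in 20.8% of all 32851 RefSeq promoter windows of 300 bases. The full element TGACGTCA, of which TGACG is a part, occurred in 1.79% of windows and in none of the 17 windows of the 6 genes. TGACG was also in 1 window each of *Pde2a*, *Pde4a*, *Pde4b* and *Adcy7*, whose levels did not follow *Pde3b*.

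*Crem*, whose products include both activators and repressors of cyclic AMP-responsive transcription, was highest in Van and lowest in VanLip. It lies at chr18:3266048-3337748 on the minus strand. The Con libraries had 6.41, 5.34 and 4.45 FPKM, the Van libraries 10.2, 9.94 and 9.63, and the VanLip libraries 4.52, 3.85 and 3.53. All Van libraries were above all others, and VanLip replicate 1 alone reached into the Con range. The log2 fold change of *Crem* in Van against Con was 0.74 ± 0.14 (SE), and VanLip gave -0.30 ± 0.14 relative to Con and -1.04 ± 0.13 relative to Van.

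*Crem* has 39 annotated transcripts, 32 of them coding and 436 to 2931 bases long, and its weighted transcript length also differed between libraries. It was 1206, 1345 and 1383 bases in Con, 1228, 1222 and 1116 in Van, and 1391, 1466 and 1545 in VanLip. The VanLip libraries were thus above all Con and Van libraries, and Con replicate 1 fell within the Van range. The log2 difference in length of Van from Con was -0.14 ± 0.06 (SE), and VanLip differed by 0.16 ± 0.06 from Con and by 0.30 ± 0.06 from Van, so that FPKM and normalized counts give *Crem* somewhat different fold changes. Length was fitted with limma for 4846 genes that had a varying length and a mean FPKM of at least 1. Of the 9 genes, *Pde7a* and *Crem* were among them. At an adjusted p of 0.05 or under, 0 genes (0%) were called in Van against Con, 4 (0.0825%) in VanLip against Con and 6 (0.124%) in VanLip against Van, and none was *Pde7a* or *Crem*. With limma and an unadjusted p under 0.05 there were 363, 423 and 402 of the 4846 genes. For *Pde7a* the lengths lay between 4399 and 5197 bases with overlapping groups. *Pde4d*, at 2167 to 3368 bases, was under the FPKM limit and not fitted. *Pde4b* was not fitted either, and its VanLip lengths of 3701 to 3743 bases lay below those of all Con and Van libraries. Also without a fit, VanLip lengths lay below those of Van for *Pde2a* and above them for *Pde4a*. Read length may enter such a ratio, and its part in the VanLip lengths was not tested.

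**Figure D2:**
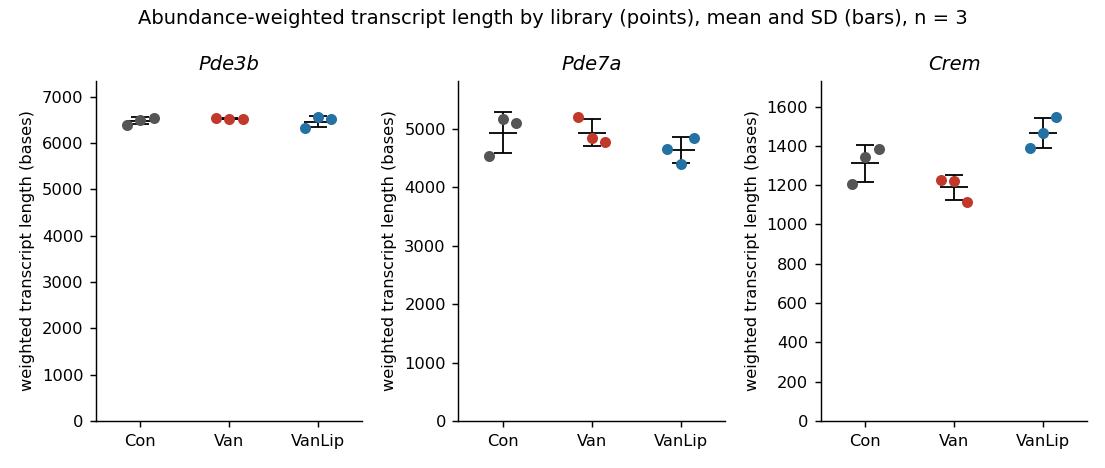
Abundance-weighted transcript length in bases (vertical axis, from 0) of *Pde3b*, *Pde7a* and *Crem* by group; points are libraries and bars give the mean and SD (n = 3). *Pde3b* stays between 6333 and 6555 bases, whereas *Crem* is at 1391 to 1545 bases in VanLip and at 1116 to 1228 bases in Van.

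*Pde4b*, the cyclic AMP-specific enzyme that is known for its part in the cytokine response of monocytes, was by far the most abundant phosphodiesterase transcript. The Con libraries had 114, 90.3 and 90.9 FPKM, the Van libraries 101, 76.0 and 66.7, and the VanLip libraries 68.7, 56.1 and 55.5. Con and Van overlapped, all VanLip libraries were below all Con libraries, and VanLip replicate 1 reached above Van replicate 3. The log2 fold change of *Pde4b* in Van against Con was -0.28 ± 0.16 (SE), and VanLip gave -0.75 ± 0.16 relative to Con and -0.47 ± 0.16 relative to Van. In Van against Con it was -0.49 ± 0.14 and called by DESeq2 without Van replicate 1, and -0.16 without Con replicate 1 or Van replicate 3. The call in VanLip against Van was lost with edgeR and in 5 of the 9 fits that left out 1 library.

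The other PDE4 genes were low or flat. *Pde4d*, also cyclic AMP-specific, was at 0.369, 0.518 and 0.465 FPKM in Con, 0.628, 0.609 and 0.594 in Van, and 0.556, 0.462 and 0.547 in VanLip. Its Van libraries were above all others, at under 1 FPKM throughout, and its log2 fold changes were 0.48 ± 0.22, 0.27 ± 0.21 and -0.21 ± 0.20 (SE) in Van against Con, VanLip against Con and VanLip against Van. *Pde4a* was at 3.03, 3.42 and 2.56 FPKM in Con, 3.31, 3.40 and 3.13 in Van, and 3.07, 3.10 and 3.23 in VanLip. All 3 groups overlapped for *Pde4a*, and its log2 fold changes lay between -0.04 and 0.09.

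*Pde2a*, the enzyme that cyclic GMP stimulates to break down cyclic AMP, differed among libraries of the same group. Its levels were 8.20, 12.2 and 12.5 FPKM in Con, 6.08, 8.36 and 8.71 in Van, and 15.5, 7.93 and 8.70 in VanLip. VanLip replicate 1 was the highest and all groups overlapped, with log2 fold changes of -0.52, -0.05 and 0.46 and an SE of 0.34 for each. In Van against Con it was called by DESeq2 when only these groups were fitted (-0.52 ± 0.17) and without VanLip replicate 1 (-0.52 ± 0.16), but not in the fit of all 9 libraries. The identifier given to *Pde2a* in the tables belongs in GENCODE M21 to *Gm45837*, a gene model of 4139 bases at chr7:101410886-101512819 that overlaps the *Pde2a* locus. The annotation release behind the deposited values is not known. Whether reads of this locus were shared with another model therefore cannot be told, and these values are uncertain.

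*Pde7a*, a cyclic AMP-specific enzyme that PDE4 inhibitors do not block, and *Adcy7*, the cyclase that predominates in blood cells, varied little between groups. *Pde7a* was at 5.33, 4.93 and 4.71 FPKM in Con, 4.74, 4.59 and 4.26 in Van, and 5.20, 4.73 and 4.39 in VanLip. *Adcy7* was at 63.4, 61.8 and 65.7 FPKM in Con, 68.8, 59.8 and 60.4 in Van, and 58.2, 69.8 and 56.7 in VanLip. The groups of both genes overlapped in every comparison. The log2 fold changes of *Pde7a* were -0.14, -0.17 and -0.03 with an SE of 0.11, and those of *Adcy7* were -0.02, -0.07 and -0.04 with an SE of 0.09.

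**Figure D3:**
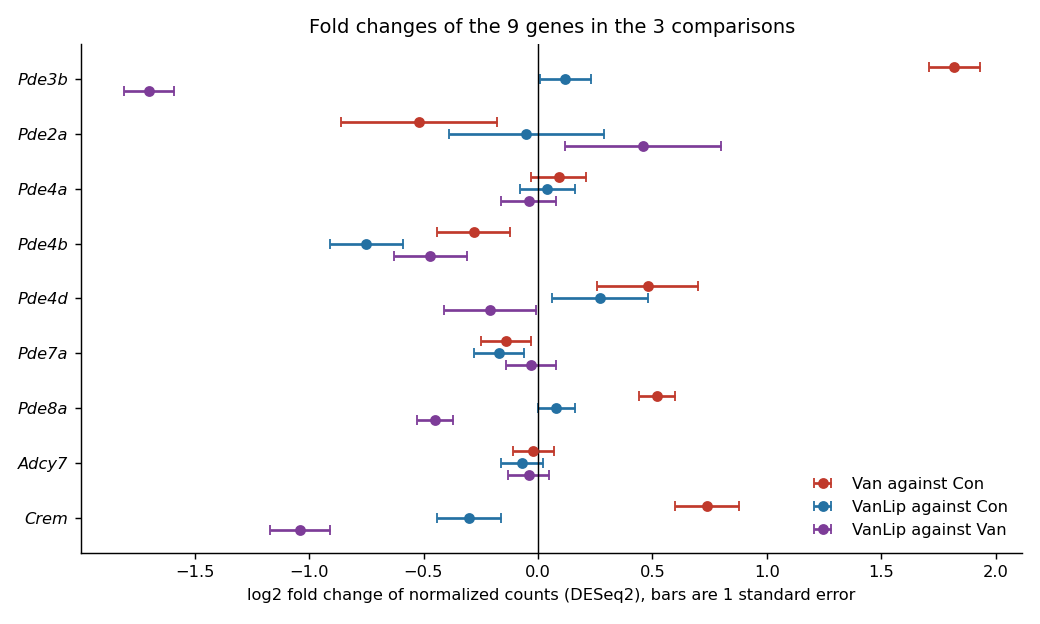
DESeq2 log2 fold changes (horizontal axis) of the 9 genes in the 3 comparisons, with bars of 1 standard error. *Pde3b* has the values 1.82, 0.12 and -1.70, *Crem* 0.74, -0.30 and -1.04, and *Pde8a* 0.52, 0.08 and -0.45, while the 3 values of *Adcy7* lie between -0.07 and -0.02.

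Among the 9 genes, 3 were called in Van against Con at a DESeq2 adjusted p of 0.05 or under, *Pde3b*, *Pde8a* and *Crem*, all higher in Van. Of all genes tested, 4.33% were called in that comparison, 2.27% higher and 2.06% lower. In VanLip against Con 1 of the 9 was called, *Pde4b*, which was lower, where 6.67% of all genes were called, 2.98% higher and 3.69% lower. In VanLip against Van 4 were called, *Pde3b*, *Pde4b*, *Pde8a* and *Crem*, all lower in VanLip, where 9.85% of all genes were called, 4.58% higher and 5.27% lower. The FPKM groups did not overlap for 4, 2 and 4 of the 9 genes in Van against Con, VanLip against Con and VanLip against Van. The same was true of 22.5%, 23.9% and 27.5% of the 13503 genes whose normalized count averaged 50 or more. Since *Pde3b* was chosen on 2 of these comparisons, nothing is read from these counts.

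The whole phosphodiesterase family was then ordered by level, which FPKM allows because it is scaled to transcript length. Of 21 genes, 9 were at 1 FPKM or more in every library, 12 never reached 1 FPKM, and 1 of these, *Pde6c* of cone photoreceptors, was listed at 0 throughout. In Con the order was *Pde4b* (98.3 ± 13.4 FPKM), *Pde1b* (17.2 ± 0.966), *Pde2a* (11.0 ± 2.40), *Pde8a* (5.81 ± 0.17), *Pde7a* (4.99 ± 0.313), *Pde7b* (3.53 ± 0.241), *Pde4a* (3.00 ± 0.431), *Pde8b* (2.48 ± 0.107) and *Pde3b* (2.06 ± 0.12; SD, n = 3 each). Among these, the Con ranges of *Pde7b* and *Pde4a* overlapped, as did those of *Pde4a* and *Pde8b*. *Pde3a*, the paralog of *Pde3b*, did not exceed 0.0463 FPKM in any library. *Pde4b* made up 65.5% ± 4.39 of the summed phosphodiesterase FPKM in Con, 60.5% ± 6.04 of it in Van and 54.6% ± 0.518 in the VanLip group (SD, n = 3 each).

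*Pde3b* stood 9th of 21 in Con, 5th in Van and 9th in VanLip. Its share of the summed FPKM was 1.38% ± 0.146 for Con, 5.47% ± 0.365 for Van and 2.06% ± 0.0452 for VanLip (SD, n = 3 each). In Van its range overlapped that of *Pde2a* above it and lay wholly above that of *Pde7a* below it. Its share of the family without *Pde4b* was 4.01% ± 0.239, 14.0% ± 1.31 and 4.54% ± 0.0882 in Con, Van and VanLip. The summed FPKM of the 21 genes did not follow *Pde3b*, at 149.6 ± 10.0 for Con, 133 ± 15.8 for Van and 110.0 ± 13.5 for VanLip (SD, n = 3 each).

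**Figure D4:**
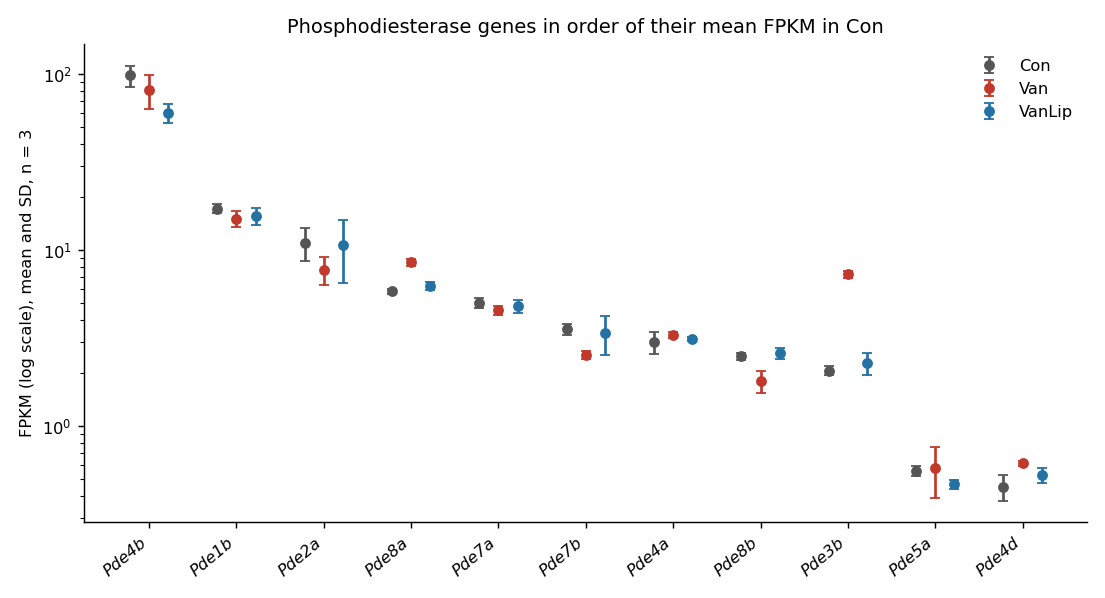
Mean FPKM and SD (n = 3, log scale) of the 11 most abundant phosphodiesterase genes by group, in order of their level in Con. *Pde3b* is 9th in Con at 2.06 FPKM and 5th in Van at 7.26 FPKM, while *Pde4b* leads in every group.

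Of the family genes outside the 9, *Pde8b* was the 1 that DESeq2 called in any comparison. *Pde8b*, the paralog of *Pde8a*, went the other way, at 2.60, 2.44 and 2.40 FPKM in Con, 2.09, 1.71 and 1.59 in Van, and 2.70, 2.38 and 2.69 in VanLip. Its Van libraries were below all others, with a log2 fold change of -0.50 ± 0.15 (SE) in Van against Con and 0.58 ± 0.14 in VanLip against Van (DESeq2 with Benjamini-Hochberg adjustment, adjusted p = 0.0213 and 0.00172). The first of these calls was lost with edgeR and without Con replicate 1 or 3 or Van replicate 2 or 3. *Pde1b*, a calcium- and calmodulin-stimulated enzyme, was at 13.4 to 18.1 FPKM and was called in no comparison.

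Beyond the 9 genes, 110 genes of 10 lists of the pathway were examined, covering phosphodiesterases, cyclases, effectors, anchors, CREB factors and their early targets, receptors with their G proteins, PDE3B partners and exporters. In Van against Con, 5 were called higher and 6 lower of 89 with an adjusted p, which is 12.4%, beside 4.33% of all genes. In VanLip against Con, 2 were called higher and 4 lower of 82 (7.32%, beside 6.67% of all genes). In VanLip against Van, 5 were called higher and 14 lower of 88 (21.6%, beside 9.85%). Their median log2 fold changes were -0.01, -0.03 and -0.07, against -0.01, 0.01 and 0.01 over all genes tested. The count of 11 in Van against Con was 7, 7 and 5 without Con replicate 1, 2 and 3, 6 and 5 without Van replicate 2 and 3, and 4 with edgeR, where the count over all genes went from 803 to 189.

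Adenylyl cyclases make cyclic AMP and guanylyl cyclases make cyclic GMP. Of 10 adenylyl cyclases, 7 had an adjusted p in Van against Con, 6 in VanLip against Con and 7 in VanLip against Van, and of 10 guanylyl cyclases, 6, 3 and 6 had one. Of these, 0 were called by DESeq2 or by edgeR in any comparison. At an unadjusted DESeq2 p under 0.05 there was at most 1 gene of either list in a comparison. *Adcy3*, *Adcy4* and *Adcy9* were measured at between 0.961 and 4.84 FPKM, far under *Adcy7*. *Adora2a*, an adenosine receptor that raises cyclic AMP, was higher in VanLip than in either other group, by 0.60 ± 0.14 on the log2 scale in both comparisons (DESeq2 adjusted p = 0.00187 against Con and 0.00107 against Van).

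Of 22 receptors and G proteins, 3 of 20 with an adjusted p were called in Van against Con (15%), 2 of 19 in VanLip against Con (10.5%) and 3 of 20 in VanLip against Van (15%), beside 4.33%, 6.67% and 9.85% of all genes. *Gpr65*, a proton-sensing receptor, was lower in VanLip against Con by a log2 value of -0.36 ± 0.09 (SE) and against Van by -0.48 ± 0.09 (DESeq2 adjusted p = 0.00455 and 1.52e-05), the first of which was lost with edgeR and without Con replicate 1. In Van against Con the histamine receptor *Hrh2* (log2 fold change -0.79 ± 0.23) and the calcitonin receptor-like gene *Calcrl* (-0.47 ± 0.13) had reduced levels (DESeq2 adjusted p = 0.0258 and 0.0125). Both calls were lost with edgeR and without Con replicate 1 or 3 or Van replicate 2 or 3, and that of *Hrh2* also without Con replicate 2. The lower value of *Adora2b* in VanLip against Van (-0.51 ± 0.17, DESeq2 adjusted p = 0.0387) was kept in 3 of the 9 fits without 1 library. The G protein genes *Gnas*, *Gnai2* and *Gnai3* were called in no comparison.

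Of 13 effectors 11 had an adjusted p, and 3 of these were called in Van against Con (27.3%, beside 4.33% of all genes) and in VanLip against Van (27.3%, beside 9.85%). They were a regulatory subunit gene and 2 inhibitor peptide genes of protein kinase A. In VanLip against Con 0 of 11 were called by DESeq2 or edgeR, with 0 at an unadjusted DESeq2 p under 0.05. *Prkar2a*, which encodes the RII alpha regulatory subunit, was at 7.91, 7.39 and 7.96 FPKM in Con, 9.42, 10.4 and 10.1 in Van, and 8.30, 7.97 and 8.00 in VanLip. Its log2 fold change was 0.35 ± 0.07 (SE) in Van against Con and -0.32 ± 0.06 in VanLip against Van (DESeq2 with Benjamini-Hochberg adjustment, adjusted p = 3.17e-05 and 4.17e-05). *Pkig*, an inhibitor peptide of the kinase, was at 28.0, 27.4 and 27.8 FPKM in Con, 33.7, 36.0 and 36.8 in Van, and 29.1, 29.5 and 29.1 in VanLip, which gave 0.37 ± 0.07 and -0.35 ± 0.06 (DESeq2 adjusted p = 9.35e-06 and 3.81e-06). For both genes every Van library was above every other library.

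*Pkib*, another inhibitor peptide of the kinase, went against *Pkig*. It was at 3.67, 4.10 and 4.64 FPKM in Con, 2.83, 3.48 and 3.20 in Van, and 5.29, 5.71 and 4.92 in VanLip, and its Van libraries were below all the others. Its log2 fold change was -0.60 ± 0.16 (SE) in Van against Con and 0.81 ± 0.16 in VanLip against Van (DESeq2 adjusted p = 0.00929 and 2.18e-05), the first of which was lost with edgeR and without Con replicate 1 or 3 or Van replicate 1. The catalytic subunit genes *Prkaca* and *Prkacb* and the regulatory subunit gene *Prkar1a* had log2 fold changes between -0.17 and 0.13 and were called in no comparison.

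Of 14 A-kinase anchoring proteins, which tether the kinase and phosphodiesterases to places in the cell, 11 had an adjusted p. Of the 11, 2 were called in Van against Con, both lower (18.2%, beside 4.33% of all genes). In VanLip against Con 1 was higher and 1 lower (18.2%, beside 6.67%), and in VanLip against Van 2 were higher and 1 lower (27.3%, beside 9.85%). *Akap12* was at 1.26, 1.40 and 1.49 FPKM in Con, 1.05, 0.901 and 0.754 in Van, and 1.40, 1.97 and 1.95 in VanLip. It was lower in Van than in Con by a log2 value of -0.63 ± 0.17 (SE) and higher in VanLip than in Van by 0.96 ± 0.17 (DESeq2 adjusted p = 0.0132 and 1.59e-06), the first of which was lost with edgeR and without Con replicate 2 or 3 or Van replicate 2 or 3. *Akap10* was higher in VanLip than in Van by 0.40 ± 0.05 and *Akap11* was lower by -0.36 ± 0.08 (DESeq2 adjusted p = 4.47e-11 and 0.000233). Relative to Con, VanLip had *Akap11* lower (-0.39 ± 0.08, DESeq2 adjusted p = 6.95e-05) and *Akap10* higher (0.21 ± 0.05, DESeq2 adjusted p = 0.00312), and the latter call was lost with edgeR and without Con replicate 1. The Van against Con call of *Akap10* (-0.18 ± 0.06, DESeq2 adjusted p = 0.028) was kept in 2 of the 9 fits without 1 library.

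All 8 CREB factors and coactivators had a log2 fold change above 0 in Van against Con, and 6 of them had an unadjusted DESeq2 p under 0.05, where 48.8% and 14.9% of all genes tested did. Such a p was found for 5 in VanLip against Van, as for 20.9% of all genes. *Crem* was the 1 called in Van against Con (12.5%, beside 4.33% of all genes), and no other gene of the list was. As *Crem* was selected together with *Pde3b*, nothing is read from this share. The other counts of the list, also those in VanLip against Van, include *Crem* too. In VanLip against Van 4 were called (50%, beside 9.85% of all genes), and beside *Crem* *Creb1* (log2 fold change -0.25 ± 0.07), *Crebbp* (-0.31 ± 0.07) and *Ep300* (-0.25 ± 0.06) were lower (DESeq2 adjusted p = 0.00287, 0.000774 and 0.00127). Those of *Creb1* and *Ep300* were lost with edgeR. Of 10 early target genes, 0 were called in Van against Con by DESeq2 or edgeR, with 1 at an unadjusted DESeq2 p under 0.05. In VanLip against Van 3 were lower (30%, beside 9.85% of all genes), the clock gene *Per1* (-1.06 ± 0.13), the AP-1 gene *Fosb* (-0.45 ± 0.10) and the kinase gene *Sik1* (-0.36 ± 0.09; DESeq2 adjusted p = 5.48e-14, 0.000355 and 0.00382), and that of *Sik1* was lost with edgeR.

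*Per1* was at 97.1, 86.4 and 91.0 FPKM in Con, 126, 104 and 101 in Van, and 62.8, 57.3 and 46.7 in VanLip, with no overlap among the 3 groups. It was also lower in VanLip than in Con by a log2 value of -0.78 ± 0.13 (SE, DESeq2 adjusted p = 3.07e-07). *Btg2*, an antiproliferative gene, was lower in VanLip than in Con by -0.34 ± 0.10 (DESeq2 adjusted p = 0.023), a call lost with edgeR and without Con replicate 1 or 2 or VanLip replicate 1 or 3. *Nr4a1*, *Fos* and *Dusp1* were at between 489 and 1485 FPKM and were called in no comparison.

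Of 9 genes for partners of PDE3B and its insulin route, 8 had an adjusted p, and *Pik3r5* was the 1 called in Van against Con (12.5%, beside 4.33% of all genes). Of the 8, 2 were called in VanLip against Van (25%, beside 9.85%). *Pik3r5* encodes the p101 regulatory subunit of PI3K gamma, the lipid kinase that is activated by G protein-coupled receptors. Binding of its product to PDE3B was not measured. The Con libraries had 41.9, 43.2 and 40.8 FPKM, the Van libraries 73.3, 68.5 and 72.9, and the VanLip libraries 51.8, 44.0 and 41.4. All Van libraries were above all others, with log2 fold changes of 0.74 ± 0.09 (SE) in Van against Con, 0.11 ± 0.09 in VanLip against Con and -0.63 ± 0.09 in VanLip against Van (DESeq2 adjusted p = 1.73e-12, 0.573 and 1.6e-09). *Pik3cg*, the catalytic subunit gene, was at 24.8 to 29.7 FPKM and, like *Akt1* and *Akt2*, was called in no comparison. *Irs2*, an insulin receptor substrate, was lower in VanLip against Van by -0.42 ± 0.13 (DESeq2 adjusted p = 0.0161), a call lost with edgeR and without Van replicate 1 or 2 or VanLip replicate 3.

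Of the 2 cyclic nucleotide exporters, *Abcc5* was higher in Van than in Con by a log2 value of 0.28 ± 0.06 (SE, DESeq2 adjusted p = 0.000122), at 42.7, 40.1 and 45.7 FPKM in Con and 55.6, 55.0 and 48.8 in Van. Its lower value in VanLip against Van (-0.17 ± 0.06, DESeq2 adjusted p = 0.0321) was kept in 1 of the 9 fits without 1 library. *Abcc4*, the other exporter, was called in no comparison.

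The genes whose pattern was most like that of *Pde3b* were found by Pearson's r over the 9 libraries, on log2(normalized count + 1), among 13502 other genes that averaged 50 normalized counts or more. They were *Ccp110* (r = 0.984), *Pik3r5* (0.984), *Ptpn23* (0.977), *Agpat5* (0.973), *Pde8a* (0.967), *Pkig* (0.965), *Prkar2a* (0.959) and *Pcnp* (0.959). *Crem* ranked 57th (r = 0.92) and *Abcc5* 123rd (r = 0.90), whereas *Adcy7* (0.01) and *Pde4b* (0.09) were unrelated in pattern and *Pde8b* was opposite (-0.85). These r values describe 9 libraries that share 3 groups and the depth difference of VanLip, so that a gene high in the 3 Van libraries alone reaches a high r.

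**Figure D5:**
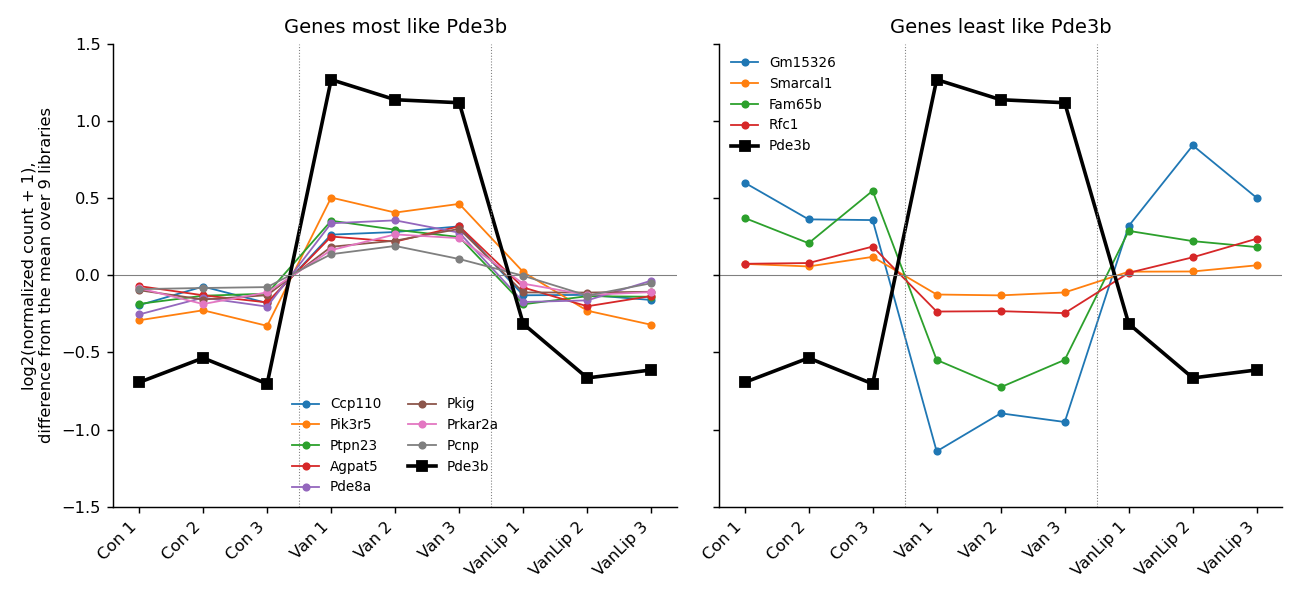
Normalized counts as log2(count + 1), each gene set to a mean of 0 over the 9 libraries (horizontal axis), for *Pde3b* (black) with the 8 genes of highest r (left) and the 4 of lowest r (right). The like genes follow the same shape at a smaller size, and *Gm15326* and *Fam65b* are low in the Van libraries, where *Pde3b* is high.

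*Ccp110*, a centriole protein gene, was at 0.900, 0.900 and 0.860 FPKM in Con, 1.27, 1.18 and 1.31 in Van, and 0.909, 0.898 and 0.990 in VanLip. *Ptpn23*, a phosphatase of endosomal sorting, was at 6.18 to 6.64 FPKM in Con, 8.13 to 8.83 in Van and 6.02 to 6.46 in VanLip. The log2 fold changes in Van against Con were 0.43 for *Ccp110*, 0.45 for *Ptpn23*, 0.39 for the lipid acyltransferase gene *Agpat5* and 0.23 for *Pcnp*, all far under the 1.82 of *Pde3b*. The least alike were *Gm15326* (r = -0.983), *Smarcal1* (-0.970), *Fam65b* (-0.966) and *Rfc1* (-0.958). *Fam65b*, an inhibitor of RhoA, was at 16.4, 14.5 and 18.3 FPKM in Con, 8.38, 7.82 and 8.62 in Van, and 14.7, 15.2 and 14.3 in VanLip.

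Some markers of monocyte subsets and of other cells also differed between groups, and their counts stand beside 4.33%, 6.67% and 9.85% of all genes called in Van against Con, VanLip against Con and VanLip against Van. *Ccr2*, the receptor that marks classical monocytes, was at 159 to 173 FPKM in Con, 70.4 to 98.2 in Van and 156 to 256 in VanLip and was 1 of 12 monocyte markers called in Van against Con. In VanLip against Van 3 of the 12 were called, all higher, with log2 fold changes of 1.04 for *Ccr2*, 0.39 for *Ly6c2* and 0.43 for *Cx3cr1*. The summed FPKM of the 12 lay between 10157 and 11453 in Van, 11256 and 11758 in Con, and 11405 and 12643 in VanLip. Of 6 red pulp macrophage markers, *Vcam1* was the 1 called, higher in Van, and the summed FPKM of the list was 1068 to 1309 in Con, 1234 to 1682 in Van and 1115 to 1361 in VanLip. Of 6 erythroid markers, 5 were higher in Van and 6 in VanLip against Con, with sums of 99.6 to 202, 343 to 772 and 278 to 1162 FPKM, so this list was above the Con level in both Van and VanLip.

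Of 10 B cell markers 2 had reduced levels in Van against Con, where 2.06% of all genes were called lower, and the list summed to 336 to 396 FPKM in Con, 251 to 277 in Van and 258 to 321 in VanLip. *Ighm* carried nearly all of that sum, at 325 to 381 FPKM in Con, 241 to 268 in Van and 247 to 308 in VanLip. Of 10 T cell markers 1 was lower in Van than in Con (sums of 15.6 to 21.0 FPKM in Con and 11.3 to 16.0 in Van), and *Cd3d*, *Cd3e*, *Trac* and *Cd28* stayed under 1 FPKM. Of 6 conventional dendritic cell markers 2 were lower in Van (sums of 105 to 120.3 and 94.5 to 114 FPKM), and of 5 plasmacytoid dendritic cell markers 1 was (19.1 to 25.3 and 20.8 to 23.6). Relative to Con, VanLip had lower *Ighm*, *Xcr1* and *Cd209a* (log2 fold changes of -0.36, -0.73 and -0.73), and relative to Van it had higher *Siglech* and *Clec9a* (0.85 and 0.67). Of the neutrophil markers *Retnlg* was called lower in Van than in Con and *Ngp* lower in VanLip than in Con. The 6 NK cell markers summed to under 1 FPKM in every library, the 8 neutrophil markers to at most 13.2 and the 5 platelet markers to at most 22.2. In bulk RNA a change in the share of a cell subset and a change in RNA per cell cannot be told apart, and the part of these markers in the *Pde3b* levels was not tested.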

How the data were processed

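RNA of splenic monocytes was sequenced in 9 libraries, 3 per group. Per the labels and the methods, the authors prepared stranded mRNA libraries, aligned paired reads to GRCm38 with HISAT2 2.2.1 (SAMtools 1.9) and deposited FPKM values per gene from StringTie 2.1.3. The authors also deposited expected counts, made from StringTie output with tximport, which need not be whole and are not normalized. The annotation release is not given in the sources used here. The submitters' processing notes also name DESeq2 1.38.3.

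Expected counts were rounded and tested with the Wald test of DESeq2 1.42.0 in R 4.3.3, with all 9 libraries in 1 fit, group as the term, and Benjamini-Hochberg adjustment over all genes tested. The threshold for a call was 0.05. All p-values are two-sided. Depth was 43070361 to 61383806 counts in Con and Van and 170503470 to 184720704 in VanLip, which carry a read-size factor, and 16151385 to 23018927 and 42625868 to 46180176 as implied fragments. Spleens may have been joined before monocyte isolation, and p-values measure the spread between these libraries. Weighted transcript length was the count divided by FPKM, scaled to bases on 1607 genes with 1 transcript (92.0% of their values within 5%), and fitted with limma 3.58.1. Alternatives were edgeR 4.0.16, TMM library sizes, a filter of 10 counts in 3 libraries, fits of 2 groups, a replicate block, limma on log2(FPKM + 1) and log2(FPKM + 0.1), a mean FPKM of at least 1, fragments with VanLip thinned to 20146290, and leaving out each library. The fits were also run on simulated data, and the outcome is not given here. Annotation was GENCODE M21.

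The 9 genes and the lists were chosen with earlier results of these data known. Genes named were the 9, list genes called in any comparison, up to 4 of the most abundant genes per list, the 8 most and 4 least like *Pde3b*, its 2 nearest coding genes on each side, and markers where a result turned on them; 1 called list gene is counted but not reported here by name. Genes that share sequence or overlap may exchange reads in the deposited estimates.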

Additional observations from a re-analysis of the deposited data

How the results depend on the processing

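The log2 fold changes of *Pde3b*, a gene chosen on these values, are given over the alternatives as a description. Without 1 library they ranged from 1.77 to 1.88 in Van against Con, from 0.00 to 0.19 in VanLip against Con and from -1.82 to -1.63 in VanLip against Van. On the log2(FPKM + 1) scale of limma, which shrinks low genes, the values were 1.43, 0.09 and -1.33. Of the 9 genes, 0 were called in VanLip against Con with limma at either pseudocount. Of all genes, 0.739% and 0.992% were called there at pseudocounts of 1 and 0.1, against 6.67% with DESeq2, which called 1 of the 9. *Crem* was not called in Van against Con with limma at these pseudocounts (log2 values of 0.77 and 0.86), where 0.138% and 0.195% of all genes were. It was called with limma at a mean FPKM of at least 1 (0.77), where 0.871% of all genes were called.

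Counts of the 110 other pathway genes differed between settings, and limma took FPKM as its input. In Van against Con 11 became 4 with edgeR, 2 with limma at pseudocounts of 1 and 0.1, 3 with limma at a mean FPKM of at least 1, and 5 to 13 without 1 library. All genes went from 803 to 189, 36, 51 and 102 in these fits, and to 425 to 913 without 1 library. In VanLip against Con 6 became 3 with edgeR, 1 with limma at both pseudocounts and 2 at a mean FPKM of at least 1, where all genes went from 1105 to 289, 193, 259 and 398. In VanLip against Van 19 became 13 with edgeR, and 9 and 10 with limma at pseudocounts of 1 and 0.1. The count was 14 with limma at a mean FPKM of at least 1. All genes went from 1777 to 727, 613, 642 and 858 in these fits. The cause was not tested.

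Values near 0 changed sign. Without 1 library *Pde4a* ranged from -0.02 to 0.20 in Van against Con and from -0.07 to 0.16 in VanLip against Con, *Adcy7* from -0.10 to 0.03 in Van against Con and from -0.13 to 0.03 in VanLip against Van, *Pde2a* from -0.44 to 0.13 in VanLip against Con, and *Pde7a* from -0.11 to 0.06 in VanLip against Van. With limma *Pde7a* in VanLip against Van was 0.05, 0.06 and 0.05.

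Same-numbered libraries shared only a number, since the correlations of their deviations from the group means lay between -0.06 and 0.12. With a replicate block *Pde3b* had 1.82, 0.11 and -1.70. In that fit 4, 1 and 4 of the 9 genes were called, and 11, 7 and 22 of the other pathway genes (10.7%, 6.8% and 21.6%). Of all genes, 3.66%, 4.5% and 6.71% were called. *Pde7a* and *Crem*, the only genes of the 9 that were fitted for length, were not called for it. *Pde4b* was called in Van against Con with the replicate block (-0.30). Depth and implied read size of VanLip limit both VanLip comparisons. *Pde4d* rests on 121 ± 13.7, 168 ± 12.5 and 146 ± 9.12 normalized counts (SD, n = 3) in Con, Van and VanLip.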
